A study of Mus musculus with 8 samples.

Results

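Laminins, integrins and fibronectin were followed through RNA from a mouse model of supratentorial ependymoma. The genes were chosen by symbol: every laminin alpha, beta or gamma chain, every integrin alpha or beta chain, and Fn1, whatever their expression. This gave 38 genes of the 55414 in the table, namely 11 laminin chains, 18 integrin alpha chains, 8 integrin beta chains and fibronectin. Reads per gene had been counted in 8 libraries, 2 for each of 4 groups, which were naive brain and brain tumor from vehicle-treated mice (vehicle naive, vehicle tumor) and from mice given MRX-2843 (MRX-2843 or drug-treated naive, MRX-2843 or drug-treated tumor). MRX-2843 inhibits the receptor tyrosine kinases MERTK and FLT3. Mice whose tumor had been seen by MRI were randomised and gavaged daily for 5 days, the drug at 50 mg/kg, and killed 1 h after the last dose. All 4 groups carry the label of the ZFTA-RELA fusion as genotype, naive brain included, and the labels also give every library the drug's name as cell line. Whether naive brain came from tumor-bearing animals, how the fusion was delivered, and the strain, age and sex of the mice are not given in the labels used here. Libraries of one group are named duplicates, with no word on separate animals, so p-values measure the spread between those libraries, which may be technical.

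Laminins are cross-shaped trimers of an alpha, a beta and a gamma chain and form the sheet on which a basement membrane is built. In brain they line blood vessels and the pial surface, where astrocyte endfeet and vascular cells anchor to them. Integrins are receptors made of an alpha and a beta chain that join the cytoskeleton to laminin, collagen, fibronectin or counter-receptors on other cells, and fibronectin is the matrix protein for which the RGD-binding integrins are best known. The beta2 and beta7 integrins are the adhesion receptors of leukocytes, microglia included.

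Promoters of 4 integrin genes are shown because these genes rose together in vehicle tumor and stand for the leukocyte receptors, Itgam and Itgax, and for the fibronectin receptor, Itga5 with Itgb1. Each is the 250 bases before the RefSeq gene start on GRCm38.p6, written 5′ to 3′ along the gene's strand. Capitals mark the letters of 1 motif on either strand. These are GAGGAA, the core bound by PU.1, a factor of myeloid cells, in Itgam, then TGANTCA, the AP-1 site, in Itgax, and the GC box GGGCGG, bound by Sp1, in Itga5 and Itgb1.
Itgam, chr7:128062390-128062639, plus strand: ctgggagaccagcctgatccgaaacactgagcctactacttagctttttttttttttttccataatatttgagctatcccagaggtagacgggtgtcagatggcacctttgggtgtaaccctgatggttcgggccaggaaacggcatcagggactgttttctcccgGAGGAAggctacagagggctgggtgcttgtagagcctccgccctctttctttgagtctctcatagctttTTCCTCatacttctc
Itgax, chr7:128129300-128129549, plus strand: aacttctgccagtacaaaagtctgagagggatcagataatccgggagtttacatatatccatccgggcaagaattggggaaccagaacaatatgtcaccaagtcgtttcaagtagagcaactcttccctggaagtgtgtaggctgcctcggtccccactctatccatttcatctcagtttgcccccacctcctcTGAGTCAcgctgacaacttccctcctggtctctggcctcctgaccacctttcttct
Itga5, chr15:103366792-103367041, minus strand: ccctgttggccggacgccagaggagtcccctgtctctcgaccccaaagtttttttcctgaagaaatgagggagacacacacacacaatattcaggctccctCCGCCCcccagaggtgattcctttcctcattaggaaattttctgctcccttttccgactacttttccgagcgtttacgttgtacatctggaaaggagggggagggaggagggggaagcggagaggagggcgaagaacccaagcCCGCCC
Itgb1, chr8:128685404-128685653, plus strand: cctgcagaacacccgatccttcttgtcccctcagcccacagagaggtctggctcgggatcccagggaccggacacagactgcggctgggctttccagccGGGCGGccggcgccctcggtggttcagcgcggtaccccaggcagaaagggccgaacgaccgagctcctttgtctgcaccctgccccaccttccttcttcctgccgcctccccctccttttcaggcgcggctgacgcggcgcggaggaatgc
The Itgam matches ended 78 and 9 bases before the end of the window, and the AP-1 match of Itgax ended 49 bases before it. Itga5 held GC boxes at 143 and 0 bases and Itgb1 at 145 bases. Some lower-case letters matched the other motifs. GAGGAA was at 121 bases in Itga5 and at 3 in Itgb1, and a GC box was at 41 bases in Itgam. Itgax held no GAGGAA, so the capitals do not separate the leukocyte from the fibronectin receptor genes. RefSeq windows were found for 23 of the 38 genes, 26 windows in all. GAGGAA was in 13 of the 26 and in 23.3% of 32851 windows of all genes, GGGCGG in 9 of the 26 and in 32.7%, and TGANTCA in 1 of the 26, that of Itgax, and in 6.75%. The NF-kB consensus was in 1 window, that of Lamb3, and in 3.9% of all. The CRE motif TGACGTCA was in none of the 26 and in 1.55% of all. Motifs were sought on both strands and counted independently, so matches of different motifs may share bases, and a match is a run of letters, not a bound site.

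Library totals ran from 51150569 to 112938462 counts, and a count of 0 allows up to 3 counts, or 0.0281 to 0.0615 CPM, the unit of levels here, in which TMM-scaled library sizes are made equal (the limit covers counting error only). Vehicle tumor stood apart. Its libraries correlated with those of vehicle naive brain at a Pearson r of 0.643 to 0.646 over 16489 genes and with those of MRX-2843 tumor at 0.654 to 0.66, whereas MRX-2843 tumor and MRX-2843 naive brain correlated at 0.964 to 0.967. MRX-2843 tumor correlated with vehicle naive brain at 0.972 to 0.974, above its correlation with MRX-2843 naive brain. The naive groups correlated with each other at 0.964 to 0.965. Fibroblast markers summed to 10110 and 10200 CPM in vehicle tumor and to 25.5 to 43.6 CPM elsewhere, and genes of the fusion model (Zfta, Rela, Ccnd1 and L1cam) to 667 and 670 CPM against 204 to 236 CPM. Of these 4, 3 were higher in vehicle tumor than in vehicle naive brain, while L1cam was lower, at 41.1 ± 0.685 against 133 ± 8.76 CPM (SD, n = 2; log2 -1.69, adjusted p = 1.6e-11). Ependymal markers, the cell type the tumor is named for, summed to 4.15 to 5.77 CPM in the vehicle groups and 8.29 to 20.1 CPM in the drug groups. By correlation and by the first 2 of these lists, the libraries labelled MRX-2843 tumor lay close to naive brain. Xist ran at 526 to 795 CPM in the 4 MRX-2843 libraries and at 0.408 to 2.88 CPM in the 4 vehicle libraries, and Ddx3y, on the Y chromosome, at 0 counts against 2168 to 6717. Treatment therefore cannot be told apart from this difference between animals, nor from a number in the column names, 909 for the drug and 914 or 915 for vehicle. In bulk tissue, fewer cells of a type and less RNA per cell cannot be told apart.

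In vehicle-treated mice the laminin, integrin and fibronectin genes were mostly far more abundant in tumor than in naive brain. Of the 37 that passed the filter on low counts, 26 rose, 4 fell and 7 were not called (edgeR's quasi-likelihood test, adjusted p under 0.05), while 29.3% of all 24356 genes tested rose and 30.8% fell. The median log2 fold change was 2.34 for the 37 and -0.03 for all genes tested. Itgb6, the partner of the alphaV chain in epithelium, was the gene that did not pass, with 18 counts in one MRX-2843 naive library, 2 in one vehicle tumor library and 0 in the other 6. Of the 37, 33 reached the filter's level of 0.146 CPM in every library of all 4 groups, and Itga2, Itgad, Itgax and Itgae in 2 or 3 groups.

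**Figure D1:**
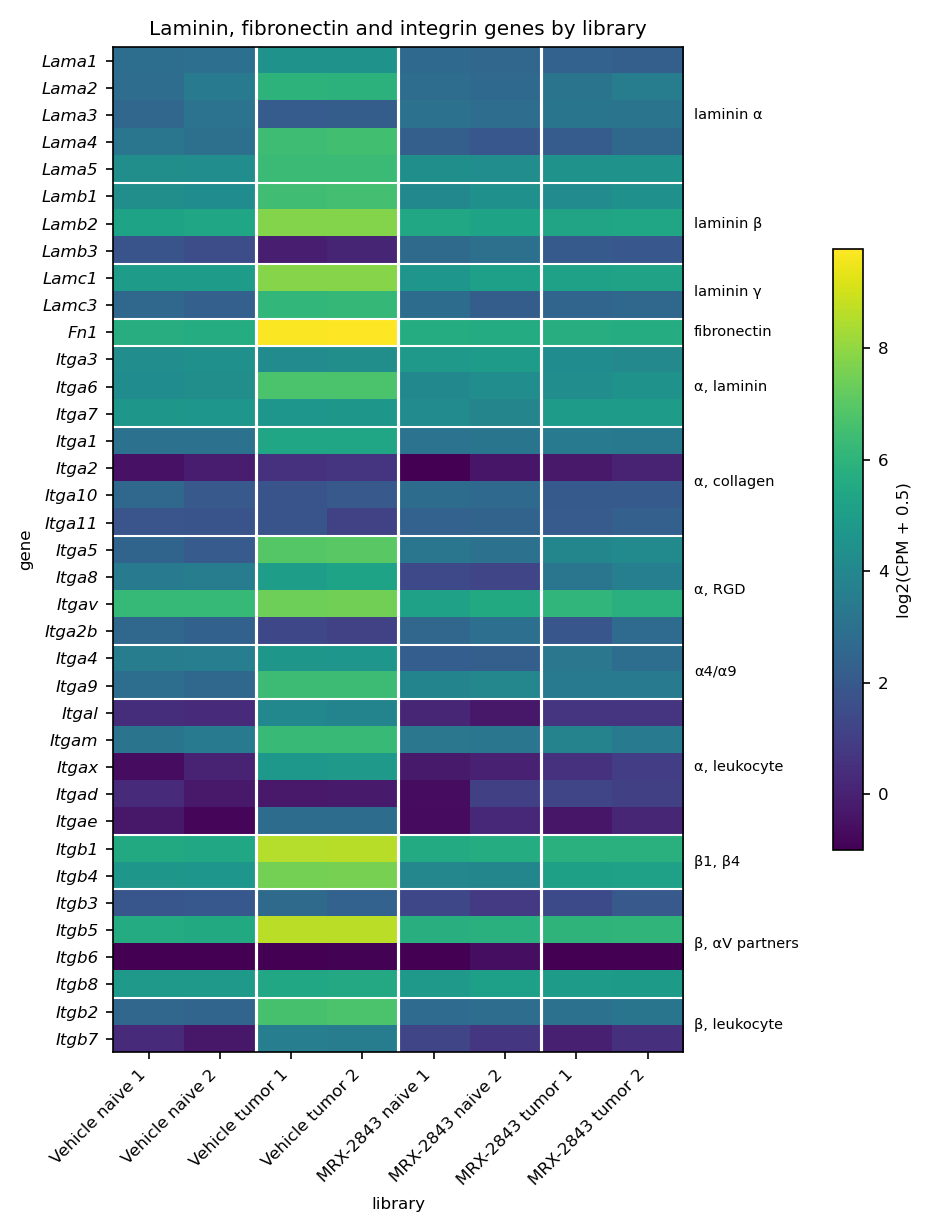
Heat map of 37 of the 38 genes, one per row by role, in the 8 libraries, with colour for log2(CPM + 0.5). The vehicle tumor columns are the bright block, with Fn1 at 835 and 870 CPM, while Lamb3, at 0.439 and 0.579 CPM, is dark there.

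Laminin alpha chains decide which receptor a laminin binds. Lama4, the alpha chain of vascular laminin, was at 8.91 and 7.39 CPM in vehicle naive brain, 86.3 and 90.4 in vehicle tumor, 4.31 and 3.34 in drug-treated naive brain and 3.87 and 5.58 in drug-treated tumor. It rose by a log2 value of 3.44 ± 0.16 (SE) in vehicle tumor against vehicle naive brain (adjusted p = 5.4e-11), and only the vehicle tumor pair was high. Lama5, the broadly used alpha chain of mature basement membranes, was at 19.5 and 18.9 CPM in vehicle naive brain, 81.4 and 79.9 in vehicle tumor, 20.1 and 19.0 in drug-treated naive brain and 22.1 and 22.2 in drug-treated tumor. Its rise was 2.07 ± 0.09 (adjusted p = 1.4e-11). Lama2, the chain of muscle and astrocyte basement membranes whose loss causes a muscular dystrophy, was at 6.66 and 10.5 CPM in vehicle naive brain, 62.2 and 60.0 in vehicle tumor, 6.73 and 5.91 in drug-treated naive brain and 8.21 and 11.3 in drug-treated tumor. It rose by 2.84 ± 0.19 (adjusted p = 4.5e-09), with vehicle tumor above the other 6 libraries. Lama1, the chain of the embryonic basement membrane and the pial surface, was at 6.99 and 7.14 CPM in vehicle naive brain, 22.1 and 22.4 in vehicle tumor, 5.87 and 5.41 in drug-treated naive brain and 4.75 and 4.28 in drug-treated tumor, a rise of 1.66 ± 0.15 in vehicle tumor (adjusted p = 1.9e-07). Lama3, the alpha chain of epithelial laminin-332, is named as the one alpha chain that went the other way. It was at 5.40 and 8.09 CPM in vehicle naive brain, 3.91 and 3.97 in vehicle tumor, 7.79 and 6.77 in drug-treated naive brain and 8.62 and 8.23 in drug-treated tumor. Its fall of -0.78 ± 0.22 (adjusted p = 0.0071) was lost without vehicle naive library 2 (adjusted p = 0.16) and with library totals in place of TMM (0.057).

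Lamb2 and Lamc1, a beta and a gamma chain found in vascular laminins, were the most abundant laminin genes per kilobase in every group. Lamb2 was at 37.0 and 40.5 CPM in vehicle naive brain, 219 and 219 in vehicle tumor, 42.7 and 38.0 in drug-treated naive brain and 38.6 and 40.3 in drug-treated tumor, a rise of 2.50 ± 0.08 in vehicle tumor (adjusted p = 3.2e-13). Lamc1 was at 29.8 and 29.2 CPM, 223 and 224, 24.5 and 33.3, and 35.6 and 36.5 in the same order of groups, a rise of 2.92 ± 0.11 (adjusted p = 3.4e-12). Lamb1, the beta chain of laminin-111, was at 19.6 and 18.4 CPM in vehicle naive brain, 87.1 and 93.3 in vehicle tumor, 15.7 and 20.8 in drug-treated naive brain and 17.6 and 20.6 in drug-treated tumor, and rose by 2.25 ± 0.12 (adjusted p = 4.1e-10). For these 3 genes the vehicle tumor pair stood alone, and the other 6 libraries lay together. Lamc3, a gamma chain found in retina and cortex, was at 5.71 and 4.46 CPM in vehicle naive brain, 69.3 and 71.3 in vehicle tumor, 6.42 and 3.99 in drug-treated naive brain and 5.15 and 5.53 in drug-treated tumor, a rise of 3.79 ± 0.19 (adjusted p = 1.1e-10).

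Lamb3, the beta chain of laminin-332, the epithelial laminin of hemidesmosomes, moved against the other beta chains. It was at 2.94 and 2.44 CPM in vehicle naive brain, 0.439 and 0.579 in vehicle tumor, 6.03 and 7.30 in drug-treated naive brain and 3.69 and 3.27 in drug-treated tumor, a fall of -2.40 ± 0.32 in vehicle tumor (adjusted p = 8.7e-06). Lama3 and Lamb3 were thus lower in vehicle tumor, while the other alpha and beta chains were higher. Epithelial markers were at 0.172 to 2.37 CPM in sum in all libraries, with Krt5 and Krt14 at 0 in both vehicle groups, and neuron markers fell from 6342 and 6207 CPM in vehicle naive brain to 409 and 408 CPM in vehicle tumor. The part of these in the falls of Lama3 and Lamb3 was not tested.

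Set against their chain class per kilobase of exon, these changes altered the mix of laminin RNA. Lama4 made up 18.1 and 13.9% of laminin alpha RNA in vehicle naive brain, 34.5 and 35.9% in vehicle tumor, 9.23 and 7.91% in drug-treated naive brain and 7.90 and 10.7% in drug-treated tumor. Lama5 held 42.0 and 37.6% in vehicle naive brain, against 34.4 and 33.6% in vehicle tumor, so that the Lama4 share equalled or passed it in that group alone. Lama3 went from 12.3 and 17.1% to 1.75 and 1.77%. Lamb2 was the main beta chain in every library, at 66.1 to 80.3%. The summed level of the laminin alpha chains was 4.08 and 4.40 CPM per kilobase in vehicle naive brain, against 20.8 and 20.9 in vehicle tumor.

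**Figure D2:**
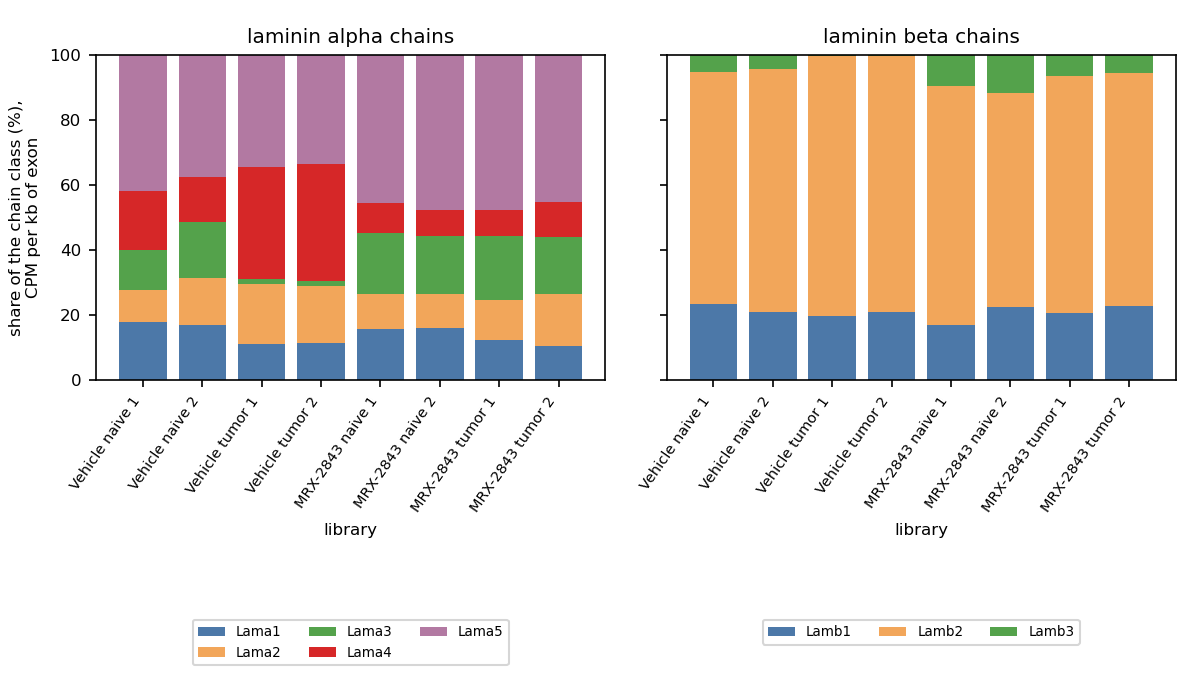
Stacked bars of the share of each laminin chain (%, from CPM per kilobase of exon) within the alpha and beta classes, one bar per library. In the vehicle tumor bars Lama4 reaches 34.5 and 35.9% and the Lama3 band, 12.3 and 17.1% in vehicle naive brain, is narrow at 1.75 and 1.77%.

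Of the 37 genes tested, Fn1 had the smallest adjusted p in vehicle tumor against vehicle naive brain. It was at 52.1 and 50.4 CPM in vehicle naive brain, 835 and 870 in vehicle tumor, 49.7 and 48.3 in drug-treated naive brain and 51.3 and 50.8 in drug-treated tumor. Vehicle tumor exceeded vehicle naive brain by 4.06 ± 0.06 (adjusted p = 1e-16), and the 6 other libraries lay between 48.3 and 52.1 CPM. MRX-2843 tumor was lower than vehicle tumor by -4.06 ± 0.06 (adjusted p = 1.1e-16). Against MRX-2843 naive brain it differed by 0.06 ± 0.05 (adjusted p = 0.49).

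Among the laminin-binding alpha chains, Itga6 alone rose in vehicle tumor. Itga6, which pairs with beta1 or beta4 and is used as a stem cell marker in brain tumors, was at 18.1 and 19.4 CPM in vehicle naive brain, 104 and 105 in vehicle tumor, 15.6 and 19.1 in drug-treated naive brain and 19.2 and 22.5 in drug-treated tumor, a rise of 2.47 ± 0.11 (adjusted p = 2.6e-11). Itga3, the receptor chain for laminin-332 and laminin-511, was at 19.1 and 20.4 CPM, 17.8 and 19.5, 27.4 and 30.0, and 18.1 and 16.1 in the same order. Itga7, the laminin receptor chain of muscle, was at 25.3 and 24.4 CPM, 25.1 and 25.8, 17.8 and 14.6, and 29.8 and 30.4. Vehicle tumor and vehicle naive brain overlapped for both, with differences of -0.08 ± 0.12 for Itga3 (adjusted p = 0.57) and 0.04 ± 0.11 for Itga7 (adjusted p = 0.81), and for Itga7 library totals without TMM gave 0.29 (adjusted p = 0.038).

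The collagen-binding alpha chains, which pair with beta1, were low, and Itga1 alone was called. It was at 7.72 and 7.93 CPM in vehicle naive brain, 39.4 and 39.9 in vehicle tumor, 8.16 and 8.69 in drug-treated naive brain and 10.2 and 9.75 in drug-treated tumor, a rise of 2.34 ± 0.12 in vehicle tumor (adjusted p = 2.4e-10). Itga11, a fibroblast collagen receptor, was at 3.12 and 3.01 CPM in vehicle naive brain, 3.02 and 1.68 in vehicle tumor, 4.80 and 4.87 in drug-treated naive brain and 3.82 and 4.38 in drug-treated tumor, while fibroblast markers were at their highest in vehicle tumor. Its difference in vehicle tumor was -0.38 ± 0.30 (adjusted p = 0.3). Itga10, a cartilage collagen receptor, was at 5.73 and 3.50 CPM in vehicle naive brain, 2.98 and 3.53 in vehicle tumor, 6.54 and 5.83 in drug-treated naive brain and 3.66 and 3.69 in drug-treated tumor. Itga2, the collagen receptor of platelets and epithelium, was at 0 to 1.07 CPM throughout, highest in vehicle tumor. Their differences there were -0.50 ± 0.27 for Itga10 (adjusted p = 0.12) and 1.70 ± 1.07 for Itga2 (adjusted p = 0.19), so neither was called.

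The RGD-binding alpha chains recognise fibronectin, vitronectin and latent TGF-beta. Itga5, the main fibronectin receptor chain, was at 5.11 and 3.78 CPM in vehicle naive brain, 121 and 129 in vehicle tumor, 8.98 and 7.59 in drug-treated naive brain and 14.7 and 17.3 in drug-treated tumor. Its rise of 4.81 ± 0.14 in vehicle tumor (adjusted p = 2.7e-13) stands beside that of its ligand Fn1, and no 2 groups overlapped. Itgav, partner of beta1, beta3, beta5, beta6 and beta8, was the most abundant alpha chain of vehicle naive brain, at 73.0 and 72.8 CPM, with 168 and 177 in vehicle tumor, 34.8 and 45.9 in drug-treated naive brain and 66.6 and 56.8 in drug-treated tumor, and rose by 1.24 ± 0.10 in vehicle tumor (adjusted p = 6.4e-08). Itga8, a receptor for nephronectin, was at 10.3 and 11.4 CPM, 31.5 and 37.7, 2.09 and 1.89, and 8.86 and 12 in the same order, a rise of 1.68 ± 0.16 (adjusted p = 3.1e-07). Itga2b, the platelet fibrinogen receptor chain, was at 5.57 and 4.56 CPM in vehicle naive brain, 2.04 and 1.62 in vehicle tumor, 5.44 and 7.22 in drug-treated naive brain and 3.22 and 6.36 in drug-treated tumor. It was the one integrin that fell in vehicle tumor, by -1.47 ± 0.32 (adjusted p = 0.0011). Platelet markers summed to 2.76 and 3.28 CPM in vehicle naive brain, against 2.78 and 2.62 in vehicle tumor.

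By length, Itga5 took 4.21 and 3.15% of integrin alpha RNA in vehicle naive brain, 23.8 and 24.5% in vehicle tumor, 8.35 and 6.46% in drug-treated naive brain and 10.9 and 12.7% in drug-treated tumor. Itgav went from 27.6 and 27.8% in vehicle naive brain to 15.2 and 15.4% in vehicle tumor, so the leading alpha chain was Itgav in vehicle naive brain and Itga5 in vehicle tumor. In MRX-2843 naive brain it was Itga3, at 22.0 and 22.0%, with Itgav at 14.9 and 17.9%.

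Itga9 and Itga4, which bind VCAM1, osteopontin and tenascin, both rose. Itga9 was at 6.90 and 5.48 CPM in vehicle naive brain, 81.9 and 81.8 in vehicle tumor, 13.8 and 15.3 in drug-treated naive brain and 10.1 and 10.8 in drug-treated tumor, a rise of 3.72 ± 0.12 (adjusted p = 1.1e-12). Itga4, also a homing receptor of lymphocytes, was at 10.9 and 11.8 CPM, 25.8 and 25.1, 4.12 and 4.22, and 9.05 and 6.95 in the same order, a rise of 1.16 ± 0.15 (adjusted p = 8.4e-06). Neither gene had overlapping groups in any of the 4 pairwise comparisons.

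Itgb5 and Itgb1 were the most abundant beta chains per kilobase in every library. Itgb1, the partner of more alpha chains than any other beta chain, was at 46.6 and 43.2 CPM in vehicle naive brain, 376 and 389 in vehicle tumor, 47.3 and 50.8 in drug-treated naive brain and 57.2 and 56.0 in drug-treated tumor, a rise of 3.09 ± 0.07 (adjusted p = 6.3e-15). Itgb5, an alphaV partner that binds vitronectin, was at 48.6 and 46.4 CPM, 407 and 403, 55.4 and 55.7, and 64.4 and 65.7 in the same order, a rise of 3.09 ± 0.06 (adjusted p = 1.9e-15). Both were high in vehicle tumor alone, with the drug-treated libraries between. Itgb4, which pairs with alpha6 in hemidesmosomes, was at 25.7 and 24.6 CPM in vehicle naive brain, 180 and 186 in vehicle tumor, 15.4 and 14.7 in drug-treated naive brain and 34.7 and 35.6 in drug-treated tumor, a rise of 2.87 ± 0.07 (adjusted p = 3.6e-14). Lama3 and Lamb3, chains of its ligand in epithelium, fell in the same comparison. Itgb8, which with alphaV activates TGF-beta in brain, was at 27.0 and 28.0 CPM in vehicle naive brain, 42.1 and 44.2 in vehicle tumor, 26.8 and 32.9 in drug-treated naive brain and 29.1 and 28.4 in drug-treated tumor, a smaller rise of 0.65 ± 0.10 (adjusted p = 5.8e-05). Itgb3, the beta chain of osteoclasts, platelets and sprouting vessels, was at 3.16 and 3.46 CPM, 6.01 and 4.79, 2.05 and 1.29, and 2.15 and 3.47. Its difference in vehicle tumor was 0.71 ± 0.33 (adjusted p = 0.075), with no overlap, and it passed with library totals in place of TMM (adjusted p = 0.019).

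The leading beta chains kept nearly the same shares while their sum changed. Per kilobase, the beta chains summed to 33.8 and 32.1 CPM in vehicle naive brain, 273.9 and 278.5 in vehicle tumor, 34.9 and 36.0 in drug-treated naive brain and 42.8 and 43.6 in drug-treated tumor. Itgb5 was 40.5 to 44.7% and Itgb1 31.5 to 34.6% of that sum in all 8 libraries. Itgb2 moved from 5.29 and 5.29% in vehicle naive brain to 11.8 and 12.4% in vehicle tumor, and Itgb8 from 7.21 and 7.89% to 1.39 and 1.44%.

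Of the 7 leukocyte integrin genes, 6 rose in vehicle tumor and Itgad was not called. Itgax, the CD11c chain of dendritic cells and activated microglia, was at 0.143 and 0.507 CPM in vehicle naive brain, 26.3 and 27.5 in vehicle tumor, 0.349 and 0.506 in drug-treated naive brain and 0.932 and 1.45 in drug-treated tumor. Its rise of 6.37 ± 0.38 (adjusted p = 1.1e-09) was the largest of the 37 with all libraries in the fit. It came to 5.73 without vehicle naive library 1, where Itgae, at 6.72, was larger, and to 7.54 without vehicle naive library 2. Itgam, the CD11b chain of microglia, macrophages and neutrophils, was at 8.21 and 10.4 CPM in vehicle naive brain, 76.6 and 77.7 in vehicle tumor, 9.05 and 8.73 in drug-treated naive brain and 13.8 and 10.3 in drug-treated tumor, a rise of 3.05 ± 0.14 (adjusted p = 6.9e-11). Itgb2, the common beta chain of these receptors, was at 5.46 and 5.18 CPM, 98.8 and 105, 6.28 and 6.64, and 7.74 and 8.70 in the same order, a rise of 4.26 ± 0.11 (adjusted p = 5.1e-14). All 3 were high in vehicle tumor alone.

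Itgal, the LFA-1 chain used by T cells on ICAM1, was at 0.847 and 0.715 CPM in vehicle naive brain, 16 and 14 in vehicle tumor, 0.615 and 0.300 in drug-treated naive brain and 1.09 and 1.05 in drug-treated tumor, a rise of 4.26 ± 0.32 (adjusted p = 1.8e-08). Itgae, the CD103 chain of tissue-resident T cells and some dendritic cells, was at 0.316 and 0.0596 CPM in vehicle naive brain, 6.46 and 6.43 in vehicle tumor, 0.123 and 0.675 in drug-treated naive brain and 0.281 and 0.607 in drug-treated tumor. Its partner Itgb7 was at 0.761 and 0.298 CPM, 11.7 and 10.9, 1.85 and 1.11, and 0.475 and 0.877. They rose by 5.08 ± 0.76 (adjusted p = 3.4e-05) and 4.40 ± 0.45 (adjusted p = 5.3e-07). With 22 and 4 counts of Itgae in vehicle naive brain, its rise was 6.72 without library 1 of that group and 4.35 without library 2, and that of Itgb7 was 5.24 without library 1. Itgad, the CD11d chain, was the leukocyte chain left out of this rise, at 0.761 and 0.343 CPM in vehicle naive brain, 0.324 and 0.363 in vehicle tumor, 0.144 and 1.58 in drug-treated naive brain and 1.85 and 1.53 in drug-treated tumor. Its difference in vehicle tumor was -0.68 ± 0.84 (adjusted p = 0.51). Itgam, Itgax and Itgad lie next to each other on chromosome 7 of GRCm38, at 128062640 to 128118491, 128129547 to 128150657 and 128154376 to 128223816. In the annotation Itgam shares 3450 of its 5024 exon bases with the model Gm49368 on the same strand, which had 0 counts in 7 libraries and 4 in the other, so the level of Itgam per length is uncertain.

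Several leukocyte marker lists moved in the same direction, but not all did. Dendritic cell markers were mixed, with 2 of 5 higher and 1 lower in vehicle tumor. The dendritic sum was 17.8 and 15.5 CPM for vehicle naive, reaching only 21.5 and 21.75 for vehicle tumor. Of 5 neutrophil markers, 2 were tested and none was called, with sums of 0 to 0.833 CPM per library. B cell markers, 3 of 4 higher, did rise. The part of these lists in the values of Itgax, Itgae and Itgam was not tested. Microglia markers, 8 of 8 higher in vehicle tumor, summed to 309 and 311 CPM in vehicle naive brain, 2979 and 3005 in vehicle tumor, 348 and 340 in drug-treated naive brain and 417 and 423 in drug-treated tumor. Markers shared by all leukocytes, 4 of 5 higher, summed to 190 and 193, 960 and 949, 147 and 144, and 179 and 184 CPM. Those of macrophages and monocytes were at 15.0 and 15.9 CPM in vehicle naive brain, against 311 and 324 in vehicle tumor, with Plac8 at 0 in vehicle naive brain. Of the 5 shared markers Coro1a did not follow, at 114 ± 2.84 CPM in vehicle naive brain against 125 ± 8.40 in vehicle tumor (SD, n = 2; log2 0.14, adjusted p = 0.12). The other 4 rose by 3.20 (Cd53) to 5.56 (Cd52) on the log2 scale, so the rise of Itgam, 3.05, lay below theirs, that of Itgb2, 4.26, within their range, and that of Itgax, 6.37, above it. These are fold changes set side by side, and differences between them were not tested. T and NK cell markers, 6 of 7 higher in vehicle tumor than in vehicle naive brain, summed to 3.68 and 3.43 CPM in vehicle naive brain, 22.7 and 23.2 in vehicle tumor, 16.9 and 18.1 in drug-treated naive brain and 27.3 and 31.1 in drug-treated tumor. Cd4 alone was at 16.5 ± 0.66 CPM (SD, n = 2) in drug-treated naive brain and 28.3 ± 3.06 CPM in drug-treated tumor, and Cd3d, Cd3g and Nkg7 were at 0 in vehicle naive brain.

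**Figure D3:**
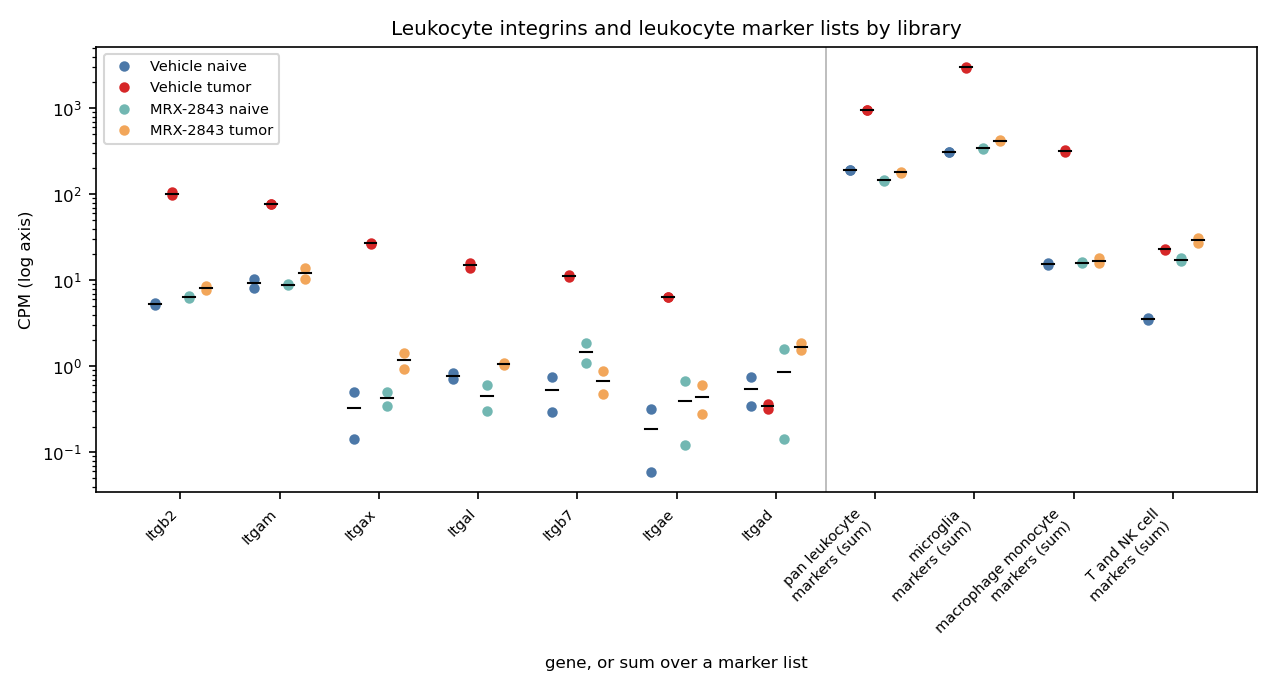
CPM on a log axis of 7 leukocyte integrin genes, left, and of summed leukocyte marker lists, right, in each library (points) with group means (black lines, n = 2). Vehicle tumor is highest for every gene but Itgad, from 6.43 CPM for Itgae to 105 CPM for Itgb2.

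Endothelial, mural and fibroblast markers were set beside the matrix genes. Endothelial markers, 8 of 8 higher in vehicle tumor, summed to 159 and 166 CPM in vehicle naive brain, against 490 and 476 in vehicle tumor, and mural markers, 2 of 7 higher and 1 lower, to 152 and 152 against 267 and 292 CPM. Per 1000 CPM of endothelial markers, Lama4 was at 56.0 and 44.4 in vehicle naive brain, 176 and 190 in vehicle tumor, 26.2 and 20.7 in drug-treated naive brain and 22.9 and 32.8 in drug-treated tumor. Lama5 was at 122.6 and 113.4 in vehicle naive brain, against 166 and 168 in vehicle tumor on that scale, a smaller shift, and Fn1 at 327 and 303 against 1704 and 1829. Fibroblast markers, 5 of 5 higher, were the ones that differed most, as given above. Their part, and that of mural cells, in the laminin and Fn1 values was not tested.

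Most of these genes were lower in the libraries labelled MRX-2843 tumor than in vehicle tumor. The drug cannot be told apart here from the sex-linked difference between the treatments, and the MRX-2843 tumor libraries lay close to naive brain, as given above. Of the 37 genes, 6 were higher in MRX-2843 tumor and 27 lower, against 30.6% and 29.8% of all genes tested, with a median log2 difference of -2.30 for the 37 and 0.03 for all. Itga3, which was not called, overlapped between the groups, at 17.8 and 19.5 CPM in vehicle tumor and 18.1 and 16.1 in MRX-2843 tumor. All 7 beta chains tested were lower, from Itgb8 at -0.58 ± 0.10 (adjusted p = 0.00016) to Itgb7 at -4.05 ± 0.44 (adjusted p = 1.2e-06). Itgax at -4.49 ± 0.33 (adjusted p = 1.5e-08), Lama4 at -4.22 ± 0.17 (adjusted p = 1e-11) and Fn1 at -4.06 ± 0.06 were among the larger falls. Itga5 was lower by -2.96 ± 0.13 (adjusted p = 2.2e-11). Those that were higher included Lamb3 at 2.77 ± 0.32 (adjusted p = 2.1e-06) and Lama3 at 1.10 ± 0.22 (adjusted p = 0.00055), together with Itgad at 2.29 ± 0.86 (adjusted p = 0.032), Itga2b at 1.39 ± 0.32 (adjusted p = 0.0017) and Itga11 at 0.80 ± 0.30 (adjusted p = 0.034). This comparison shares the vehicle tumor libraries with the one above, and neuron markers (3316 and 3299 CPM in MRX-2843 tumor), microglia markers and fibroblast markers differed with it. Itgad lost its call without MRX-2843 tumor library 1 (adjusted p = 0.077), Itga2b without library 2 (0.058), and Itga11 without either (0.051 and 0.15), without vehicle tumor library 2 (0.3) or with library totals (0.12). Among the falls, Itgb3 at -0.94 ± 0.33 (adjusted p = 0.023) was lost without MRX-2843 tumor library 1 (0.18) or vehicle tumor library 1 (0.11).

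**Figure D4:**
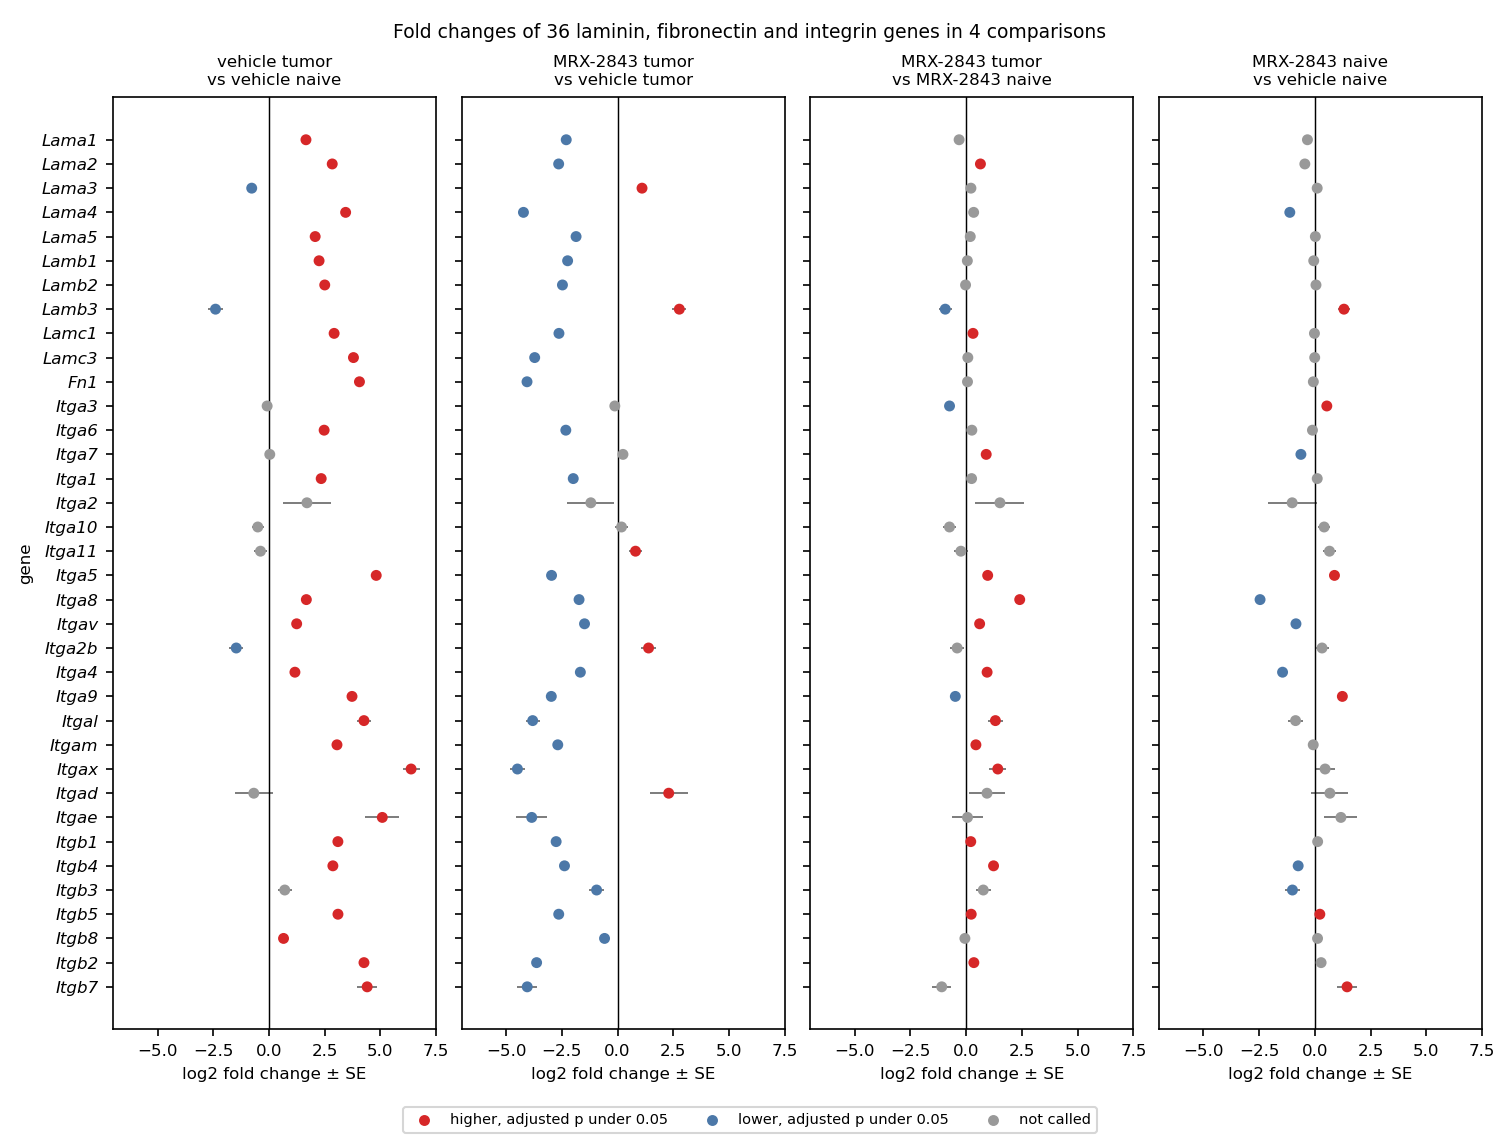
Log2 fold change ± SE (n = 2 libraries per group) of 36 of the 37 genes tested in 4 comparisons, red for called higher, blue for called lower and grey for not called. The panels for vehicle tumor against vehicle naive brain (26 higher) and for MRX-2843 tumor against vehicle tumor (27 lower) share the vehicle tumor libraries, and the other panels are narrow.

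Within the drug-treated mice, tumor and naive brain differed far less. Of the 37 genes 15 were higher in MRX-2843 tumor and 3 lower, against 12.4% and 11.9% of all genes, with a median of 0.24 for the 37 and 0.00 for all. Receptor chains made up most of these, 12 of 25 integrins being higher against 3 of 11 laminins. Itgb4 had the smallest adjusted p, being higher by 1.23 ± 0.07 (adjusted p = 2.5e-08), followed by Itga8 at 2.40 ± 0.18 (adjusted p = 3.5e-07), Itga7 at 0.90 ± 0.11 (adjusted p = 3.9e-05) and Itga5 at 0.96 ± 0.13 (adjusted p = 7.2e-05). Itga4 was also higher, by 0.94 ± 0.16 (adjusted p = 0.00055), and Itga3 was lower by -0.75 ± 0.12 (adjusted p = 0.00024). These 6 genes were chosen by adjusted p in this comparison, so the gap between their libraries adds no separate support. Oligodendrocyte markers, 6 of 6 higher, summed to 13730 and 14180 CPM in MRX-2843 tumor and 7462 and 7383 in MRX-2843 naive brain, and microglia markers, 5 of 8 higher, to 417 and 423 against 348 and 340 CPM. Of 8 neuron markers, 1 was higher and 4 lower in MRX-2843 tumor. Slc17a7 went from a mean of 150 CPM in MRX-2843 naive brain to 795 in MRX-2843 tumor, while Gad1 went from 341 to 188 and Nefl from 239 to 111. The part of all these marker genes in the differences was not tested. With a minimum absolute log2 fold change of 1, 4 of the 18 calls were left, Itga8, Itgb4, Itgax and Itgal.

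Itgax at 1.42 ± 0.38 (adjusted p = 0.014), Itgal at 1.31 ± 0.35 (adjusted p = 0.012), Itgam at 0.44 ± 0.14 (adjusted p = 0.04) and Itgb2 at 0.34 ± 0.11 (adjusted p = 0.03) were also higher in MRX-2843 tumor than in MRX-2843 naive brain. Of the laminins, Lama2 at 0.64 ± 0.19 (adjusted p = 0.026) and Lamc1 at 0.31 ± 0.10 (adjusted p = 0.048) were higher and Lamb3 at -0.94 ± 0.28 (adjusted p = 0.026) was lower. These 7, with Itgb1 (0.20 ± 0.06, adjusted p = 0.028) and Itga9 (-0.49 ± 0.12, adjusted p = 0.0069), each lost the call when at least 1 library was left out. MRX-2843 naive library 2 was such a library for Itgal (adjusted p = 0.18), Itgam (0.13), Itgb2 (0.067), Lamb3 (0.19), Lama2 (0.12) and Itga9 (0.056), and MRX-2843 naive library 1 for Lamc1 (0.41), Itgb1 (0.18), Itgam (0.066) and Itgb2 (0.12). MRX-2843 tumor library 1 was one for Itgam (0.42), Itgb1 (0.12), Lamc1 (0.081) and Lamb3 (0.075), and library 2 for Itgax (0.096), Itgb2 (0.2), Lama2 (0.22), Lamb3 (0.14) and Lamc1 (0.11). Itgb2 lost the call also without either vehicle tumor library, with its log2 value at 0.345 each time. Those libraries are in neither group compared and enter through the scaling, the filter, the shared spread and the adjustment over all genes tested. Itgb5 at 0.23 ± 0.06 (adjusted p = 0.0081) and Itgav at 0.60 ± 0.11 (adjusted p = 0.0007) kept theirs.

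Naive brain itself differed between the treatments. Of the 37 genes, 6 were higher and 8 lower in MRX-2843 naive than in vehicle naive brain, against 9.78% and 11.7% of all genes tested, with medians of 0.03 and 0.02. Itga8 was lowest in MRX-2843 naive brain of all groups, at 2.09 and 1.89 CPM against 10.3 and 11.4 in vehicle naive brain, a difference of -2.45 ± 0.18 (adjusted p = 1.9e-07). Itga4 was lower by -1.45 ± 0.16 (adjusted p = 1e-05), Itgav by -0.84 ± 0.11 (adjusted p = 3.6e-05) and Itgb4 by -0.74 ± 0.07 (adjusted p = 2.8e-06). Itga9 was higher by 1.24 ± 0.12 (adjusted p = 3e-06). These 5 genes were likewise chosen by adjusted p in this comparison, and the gap between their groups adds no separate support. Lama4 at -1.12 ± 0.17 (adjusted p = 0.00019), Itga7 at -0.62 ± 0.11 (adjusted p = 0.00096) and Itgb3 at -1.0 ± 0.34 (adjusted p = 0.048) were also lower. Lamb3 at 1.31 ± 0.29 (adjusted p = 0.0038), Itgb7 at 1.45 ± 0.43 (adjusted p = 0.027), Itga5 at 0.88 ± 0.14 (adjusted p = 0.00033), Itga3 at 0.54 ± 0.12 (adjusted p = 0.0032) and Itgb5 at 0.23 ± 0.06 (adjusted p = 0.0091) were the other rises. Itgb3 lost its call without MRX-2843 naive library 2 (adjusted p = 0.29) or vehicle naive library 1 (0.095) or 2 (0.16) and with a replicate block (0.055). Itgb7, at 2.28 without vehicle naive library 1, lost it without MRX-2843 naive library 1 (0.14) or vehicle naive library 2 (0.21), and Itgb5 without vehicle naive library 2 (0.12). Of 8 neuron markers, 2 were higher and 5 lower in MRX-2843 naive brain. They summed to 6342 and 6207 CPM in vehicle naive brain and 3120 and 3167 in MRX-2843 naive brain. Slc17a7 went from a mean of 1685 to 150 CPM, while Gad1 went from 226 to 341 and Nefl from 199 to 239. Choroid plexus markers, 1 of 5 higher, summed to 6.79 and 7.76 against 25.1 and 27.6 CPM. The higher one was Clic6, which went from a mean of 0.998 to 19.8 CPM. The part of these marker genes was not tested, and the drug cannot be told apart from the sex-linked difference between the treatments.

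**Figure D5:**
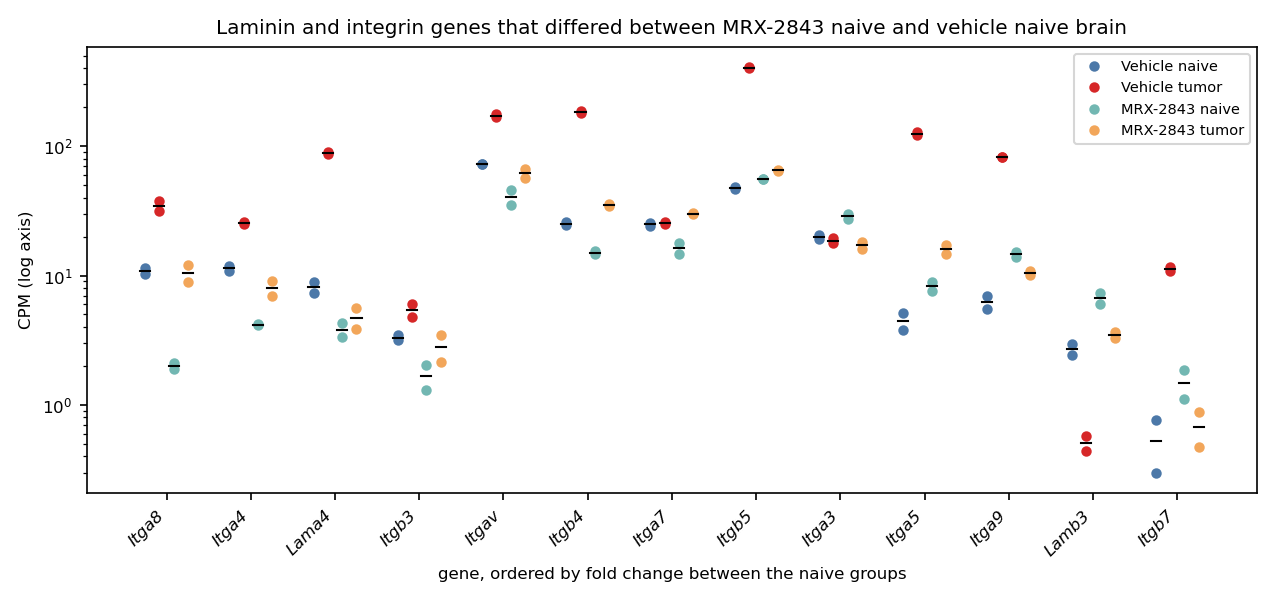
CPM on a log axis of 13 of the 14 genes that differed between MRX-2843 naive and vehicle naive brain, ordered by that fold change, in all 8 libraries (points) with group means (black lines, n = 2). Itga8, at the left, sits at 2.09 and 1.89 CPM in MRX-2843 naive brain and at 8.86 to 37.7 CPM in the other groups.

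The interaction of treatment and tissue, the tumor difference under drug minus that under vehicle, was called for 30 of the 37 genes. It was positive for 5 and negative for 25, against 26.3% and 25.3% of all genes tested. Itgb7 at -5.50 ± 0.61 (adjusted p = 2e-06), Itgae at -5.02 ± 1.01 (adjusted p = 0.00064), Itga9 at -4.21 ± 0.17 (adjusted p = 1.6e-11) and Fn1 at -4.00 ± 0.08 (adjusted p = 4.1e-15) were among the most negative. Itgae ran from -6.67 without vehicle naive library 1 to -3.24 without MRX-2843 naive library 2, and Itgb7 was at -6.33 without vehicle naive library 1. Lamb3 was positive, at 1.46, being lower in tumor than in naive brain under both treatments but by less under the drug. For Itga4 the tumor differences were 1.16 under vehicle and 0.94 under drug, with an interaction of -0.22 ± 0.22 (adjusted p = 0.43). The interaction contains all 4 groups, so the difference between the naive groups enters it.

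Genes that build on laminins or act below integrins were counted from 4 further lists. All genes tested give the background, 29.3% higher and 30.8% lower in vehicle tumor against vehicle naive brain, and 30.6% higher and 29.8% lower in MRX-2843 tumor against vehicle tumor. All 8 partners of laminin in the basement membrane rose in vehicle tumor, with a median of 4.74, and all 8 were lower in MRX-2843 tumor than in vehicle tumor. Col4a1, a network-forming collagen IV chain, went from 76.7 ± 1.87 CPM (SD, n = 2) to 842 ± 23.2 CPM, a log2 rise of 3.46 ± 0.06 (adjusted p = 4.1e-16), and Hspg2, perlecan, from 12.9 ± 0.374 to 368 ± 7.63 CPM (4.84 ± 0.08, adjusted p = 7.5e-16). Col15a1, which bridges basement membrane to stroma, rose by 5.58 ± 0.13 (adjusted p = 1.5e-14) and Col4a2 by 2.21 ± 0.06 (adjusted p = 3.4e-14). Of the 8 genes for laminin receptors other than integrins and their modifying enzymes, 5 rose and 3 fell. Dag1, dystroglycan, went from 52.9 ± 0.572 to 357 ± 14.5 CPM (2.76 ± 0.06, adjusted p = 9.3e-15). Rpsa, a ribosomal protein also described as a laminin receptor, rose by 0.78 ± 0.04 (adjusted p = 5.8e-10), and Dmd, dystrophin, by 0.65 ± 0.10 (adjusted p = 2.8e-05).

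Of 21 other integrin ligands tested out of 24 listed, 16 rose and 2 fell in vehicle tumor. Between the tumors, 3 were higher and 17 lower under the drug. Spp1, osteopontin, a ligand of alphaV, alpha4 and alpha9 integrins, went from 7.81 ± 0.446 to 1701 ± 51.8 CPM (7.77 ± 0.09, adjusted p = 2.5e-17). Icam1, the counter-receptor of the beta2 integrins, went from 1.53 ± 0.0837 to 250 ± 8.79 CPM (7.35 ± 0.11, adjusted p = 1.5e-16), and Postn, periostin, rose by 6.21 ± 0.09 (adjusted p = 1.5e-16). Icam5, a beta2 ligand of forebrain neurons, fell by 5.02 ± 0.10 on the log2 scale (adjusted p = 4.7e-15). Of 29 genes for proteins at the cytoplasmic side of integrins, 20 rose and 4 fell, with a median of 0.85. Pxn, paxillin, went from 53.0 ± 3.93 to 334 ± 1.88 CPM (2.66 ± 0.07, adjusted p = 9.8e-14), Tns1, tensin, rose by 2.52 ± 0.06 (adjusted p = 5.4e-14), and Flna, filamin A, by 1.5 ± 0.06 (adjusted p = 3.1e-12). Ptk2b, a focal adhesion kinase abundant in forebrain neurons, went the other way, from 474 ± 18.2 to 39.0 ± 0.913 CPM (-3.60 ± 0.06, adjusted p = 5.5e-16).

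Reads of overlapping genes limit some of these values. Exons of 10 of the 38 genes share bases with exons of a gene on the opposite strand, up to 1124 bases for Itga4 with Cerkl, and the strand setting of the counting is not given in the sources used here, so reads of both could be mixed. Fn1 shares 292 of its 11685 exon bases with Apol7d. On the same strand, Itga10 shares 1739 of 5186 exon bases with the model Gm42957, which had 0 to 4 counts per library, and Itga1 685 of 18599 with Gm49395, which had 0 to 14.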

How the data were processed

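RNA of naive brain and tumor was measured by RNA-seq in 8 libraries. The deposited values are raw counts of reads, as whole numbers, over 55414 genes. The submitters' processing notes list the tools Subread, featureCounts, SAMtools and STAR 2.7.7a beside the builds mm10 and hg38, without their roles; annotation, strand setting and trimming are not given in the sources used here. Gene positions are from GENCODE M21 on GRCm38, in which 52081 identifiers (94.0%) were found without their version number and 35 with it. All 38 genes were found, and exon lengths are from that release.

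Under R 4.3.3, edgeR 4.0.16 scaled the libraries by TMM, kept 24356 genes by filterByExpr (minimum count 10, by group) and fitted 1 mean per group to the 8 libraries with its quasi-likelihood model. The fit left 4 residual degrees of freedom at a common biological coefficient of variation of 21.0%, and 5 comparisons were tested. A gene is called at a Benjamini-Hochberg adjusted p under 0.05 over all genes tested. Standard errors divide the size of a log2 fold change by the square root of its F statistic. The script was tested on simulated data. Tables and plots used Python 3.11.15, pandas 2.3.3, NumPy 2.4.6 and matplotlib 3.10.9.

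The genes and lists were chosen with earlier results of these data known. Values of every library are given for up to 4 genes per role with the smallest adjusted p in vehicle tumor against vehicle naive brain and up to 6 in each of the comparisons within the drug and between naive groups, plus Lama3 and Itgad, named after their values were seen; related lists give up to 4 genes each. Values of 2 genes are not reported here, and the counts include them. Alternatives were other scaling, DESeq2 1.42.0, other filters, a replicate block, a fold minimum, fewer groups, no mitochondrially encoded genes, and leaving out each library.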

Additional observations from a re-analysis of the deposited data

Results flagged for a closer look

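For 30 of the 37 genes tested, the difference between tumor and naive brain was not the same under drug and vehicle, by the test of the interaction itself in edgeR's quasi-likelihood fit (adjusted p from 4.1e-15 to 0.021). Of all genes tested, 26.3% were called positive and 25.3% negative. The drug cannot be told apart here from the sex-linked difference between the treatments or from the number in the column names. The MRX-2843 tumor libraries also lay close to naive brain, as given above. Values are the log2 difference under MRX-2843 minus that under vehicle. Among laminins it was -1.97 for Lama1, -2.20 for Lama2, -3.10 for Lama4 and -1.89 for Lama5. It was -2.19 for Lamb1, -2.53 for Lamb2, -2.61 for Lamc1 and -3.71 for Lamc3. It had the opposite sign for Lama3, at 0.99, and for Lamb3, at 1.46. Fibronectin, Fn1, was at -4.00.

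Among alpha chains it was -3.85 for Itga5, -4.21 for Itga9, -2.10 for Itga1, -2.22 for Itga6, -0.64 for Itgav and -0.66 for Itga3. Itga7 at 0.86 and Itga8 at 0.73 were positive, both being higher in tumor than in naive brain under the drug. Itga8 was higher in tumor under vehicle too, at 1.68 against 2.40 under the drug. Both genes were lower in MRX-2843 naive than in vehicle naive brain, by -0.62 for Itga7 and -2.45 for Itga8, and that difference enters these values. The leukocyte chains were at -2.95 for Itgal, -2.61 for Itgam, -4.95 for Itgax and -5.02 for Itgae. Beta chains were at -2.88 for Itgb1, -3.92 for Itgb2, -1.64 for Itgb4, -2.87 for Itgb5, -5.50 for Itgb7 and -0.71 for Itgb8. The call of Itga8 was lost under unscaled library totals (adjusted p = 0.09), and also when MRX-2843 naive library 2 was left out (0.078), or MRX-2843 tumor library 2 (0.12), vehicle naive library 2 (0.063) or vehicle tumor library 1 (0.076), and that of Lama3 under those totals (0.053) and without MRX-2843 naive library 2 (0.051) or vehicle naive library 2 (0.12). Leaving out 1 library moved Itgae between -6.67 and -3.24, Itgax between -6.12 and -4.31, by the choice of vehicle naive library, and Itgb7 to -6.33 without vehicle naive library 1. Groups of 2 libraries are too small to test for a single stray library.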

How the results depend on the processing

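Over 3182 values, each a gene in a comparison under an alternative, no called value changed sign, 3058 kept their side of the threshold, 88 lost the call and 36 gained it. With an absolute log2 fold change of at least 1, the genes called fell to 4 from 18 for MRX-2843 tumor against MRX-2843 naive brain and to 8 from 14 between the naive groups. Leaving out 1 library gave 30 to 31 genes called in vehicle tumor against vehicle naive brain, 13 to 20 in MRX-2843 tumor against MRX-2843 naive brain, 30 to 33 between the tumors, 12 to 15 between the naive groups and 28 to 31 for the interaction. A group left with 1 library was assumed to vary like the others. In a fit of only the groups compared, 13 genes in place of 18 differed between MRX-2843 tumor and MRX-2843 naive brain: Itgb2 (adjusted p = 0.19), Itgal (0.21), Itgax (0.11), Lamc1 (0.078), Itgb1 (0.077) and Itgam (0.07) were lost and Itga10 (0.019) was gained. Library totals in place of TMM moved the median of all genes by 0.24 in vehicle tumor against vehicle naive brain, by -0.21 between the tumors and by -0.22 in the interaction. Vehicle naive library 2 alone carries the number 915; without it, so within 914, 30 genes were called in vehicle tumor against vehicle naive brain. With DESeq2 as the test the counts, in the order of the left-out libraries above, were 30, 18, 33, 14 and 30, as with edgeR. The cause of these changes was not tested.

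With the replicate number as a block, 30 genes were called in vehicle tumor against vehicle naive brain, 18 in MRX-2843 tumor against MRX-2843 naive brain, 33 between the tumors, 13 between the naive groups and 30 for the interaction. Deviations of same-numbered libraries from their group means correlated at -0.054 to 0.012 over 16489 genes in the 6 pairs of groups. No effect shared by same-numbered libraries was seen, but this cannot show whether they were paired by animal or batch. Groups of 2 libraries and 4 residual degrees of freedom limit what could be called, and genes near 1 CPM, such as Itga2, Itgad and Itgae, have standard errors of 0.70 to 1.10 in the comparison of MRX-2843 tumor with MRX-2843 naive brain.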

Other observations

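Per kilobase of exon, which allows levels to be set between genes, Itgb5 led in vehicle naive brain at 13.4 ± 0.437 CPM per kilobase (SD, n = 2), followed by Itgb1 at 11.0 ± 0.582, Itgav at 6.79 ± 0.010, Lamb2 at 6.37 ± 0.396 and Fn1 at 4.38 ± 0.0987. In vehicle tumor the order was Itgb5 at 114 ± 0.816, Itgb1 at 93.7 ± 2.21, Fn1 at 73.0 ± 2.10, Lamb2 at 36.0 ± 0.00885, Itgb2 at 33.4 ± 1.49, Lamc1 at 27.0 ± 0.0919, Itgb4 at 26.1 ± 0.599 and Itga5 at 25.3 ± 1.11. Lamc1, Itgb4 and Itga5 lay within 2 SD of each other there, and so did Lamb2 and Itgb2 by the SD of Itgb2. Itgb2 and Itga5 were at 1.74 ± 0.0625 and 0.902 ± 0.190 CPM per kilobase in vehicle naive brain, so a leukocyte chain and the fibronectin receptor chain joined the leading genes in vehicle tumor.

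Ilk, the kinase-like scaffold that binds the tail of beta1 integrin and is used by most cells, was listed at a mean of 0.0967 to 0.156 CPM in the 4 groups, a feature singled out after its values were seen. Of its 2744 exon bases in GENCODE M21, 2106 overlap exons of Taf10 and 355 exons of Rrp8 on the opposite strand. Whether reads of Ilk were left unassigned in the counting was not tested, and no level of Ilk is read from these counts.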
